A study of Rattus norvegicus with 4 samples.

Results

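The effect of 48 h of growth hormone on primary rat hepatocytes was read on 2 arrays, and 2224 of the 6240 listed features had a value on both of them. These 2224 features, taken whether or not they also had a value at 24 h, are described here. A further 748 features had a value on 1 of the 48 h arrays and 3268 on neither. The hormone was bGH at 100 ng/ml, and the comparison group on each array was untreated hepatocytes harvested alongside. Both groups were grown on commercial Matrigel, a basement membrane extract, in Williams E medium with added insulin and vitamin C. The labels call the insulin concentration high for the 24 h samples and do not describe it for the 48 h samples. Of the 4 samples in the series, the other 2 were treated for 24 h. On the first 48 h array the treated RNA was in channel 1 and on the second in channel 2. Both 48 h labels name Cy3 for it, so the dyes are not settled.

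Growth hormone acts on hepatocytes through its receptor, which activates the kinase JAK2 and the transcription factor STAT5b. In liver it is known for inducing Igf1, the hormone that carries much of its effect on growth, and the feedback inhibitors Socs2 and Cish, and for setting the sex-dependent levels of many cytochrome P450 genes. None of these genes could be located among the features. The features carry plate-and-well IDs, the files do not pair them with genes, and 0 of the 6240 matched the rat RefSeq gene table (GRCr8). For the same reason the hepatocyte label was not checked against marker genes, and results are given for features by count and, for 2 of each sign, by ID.

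Each value is a deposited log ratio between the channels of an array, treated here as log2, so a ratio of 1 is a change of 2 times. Which channel is the numerator is not stated, and neither is the log base. A positive ratio is therefore not known to mean more RNA in treated cells, and signs were left as deposited. The labels mention 4 biological replicates in 8 hybridisations, but the table has 2 columns for each time. Each column is taken below as an array, although whether a column is a mean of several hybridisations is not known. Nothing says that the columns came from separate cultures, so the p-values reflect only how far the arrays differed, which may be technical.

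The first 48 h array had the wider ratios. Over the 2224 features its SD was 0.633 and its values ran from -4.42 to 2.71, while the second array had an SD of 0.383 and values from -3.57 to 3.35. Both were centred, with medians of -0.0045 and 0.0054. A ratio of at least 1 in size was seen for 10.1% of the features on the first array, 68 of them positive and 157 negative. On the second array the share was 2.29%, with 24 positive and 27 negative. The first array held the larger ratio in size for 1480 of the features (66.5%). The excess of negative ratios among large values was thus seen mainly on the first array.

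The 2 arrays were related but far from identical. Both gave the same sign for 1351 of the 2224 features (60.7%), 681 positive and 670 negative, and opposite signs for 873. Across features, which share arrays and plates and are not independent, Pearson's r was 0.39 and Spearman's rho 0.30. The median gap between the arrays was 0.316, and it exceeded 1 for 179 features (8.05%). Turning the ratios by the channel labels, as would be needed if the deposited columns were channel 2 over channel 1, makes this correlation -0.39. Which reading is right was not tested.

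**Figure D1:**
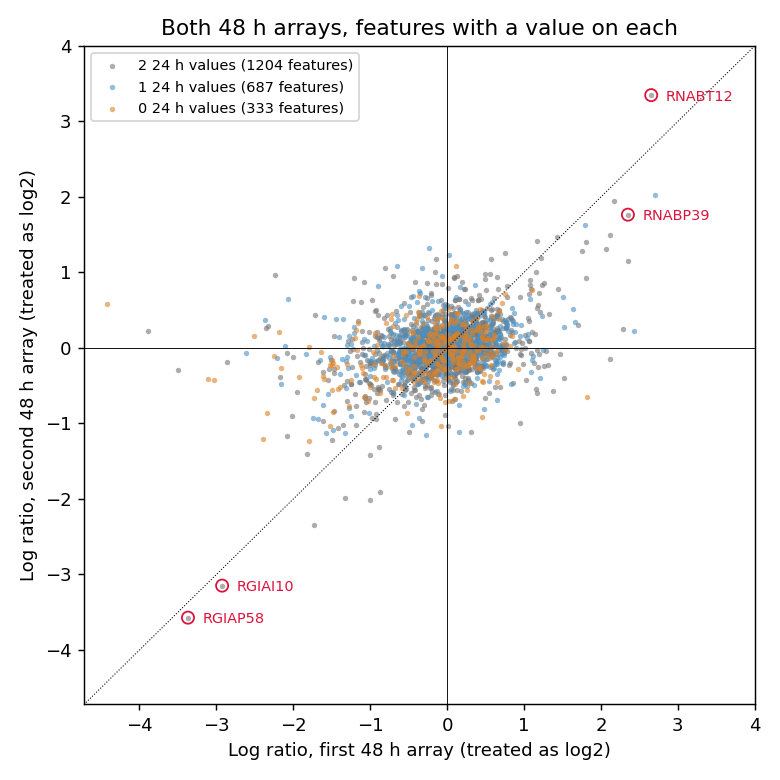
Log ratio on the first (x axis) against the second 48 h array (y axis), both treated as log2, for 2224 features, coloured by how many 24 h arrays also had a value; the dotted line marks equal ratios and circles mark the 4 features that passed the test. The cloud is wider along x (SD 0.633) than along y (SD 0.383), and the circled features lie near the line.

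With limma, 4 of the 2224 features passed at an adjusted p of 0.05 at 48 h, which is 0.18% of those tested. Of these, 2 had positive ratios (0.0899%) and 2 negative ones (0.0899%), and each call had one sign on both 48 h arrays. The fit had 1 mean per time, and the 24 h arrays added to the estimate of spread for the 1204 features measured on all 4 arrays. The other 1020 features had 1 residual degree of freedom, and all 4 calls were among the 1204.

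RNABT12 had the highest mean ratio of all members at 48 h, with the columns as deposited. Its ratio was 2.65 on the first and 3.35 on the second array, a mean of 3.0 ± 0.49 (SD, n = 2 arrays) with a limma 95% interval from 2.43 to 3.57, and its limma adjusted p was 0.0084. As deposited, that is a difference of 8.01 times if the base is 2 and of 20.1 times if the logarithm is natural. Read as channel 2 over channel 1 and turned by the labels, the mean of RNABT12 at 48 h was 0.35. At 24 h the same feature read 2.43 and 2.17, so both 48 h values lay above both 24 h values. It was chosen for its high 48 h mean, which favours such an order. The difference between times was 0.70 ± 0.33 (SE) and did not pass (limma adjusted p = 0.958).

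RNABP39, at rank 4 by mean, read 2.35 and 1.77 on the 48 h arrays, a mean of 2.06 ± 0.41 (SD, n = 2 arrays) with an interval from 1.52 to 2.59 and a limma adjusted p of 0.040. At 24 h it read 1.85 and 2.06, inside the range of its 48 h values. It was the weakest of the 4 calls. The feature in the well before it on the same plate read 2.17 and 1.95, and the one in the well after it -0.26 and -0.49, and neither of these neighbours passed (limma adjusted p of 0.0588 and 0.537).

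RGIAP58 had the lowest mean of all members, again as deposited. It read -3.37 and -3.57, a mean of -3.47 ± 0.14 (SD, n = 2 arrays) with an interval from -3.92 to -3.02, and its limma adjusted p was 0.0025. At 24 h it read -1.67 and -1.64, so the 48 h ratios were about 1.8 log2 units farther from 0 and the times did not overlap. The difference between times was -1.81 ± 0.26 (SE) and did not pass (limma adjusted p = 0.236). Its neighbouring wells read between -0.20 and -0.034 at 48 h.

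RGIAI10 was next lowest. Its 48 h ratios were -2.93 and -3.15, a mean of -3.04 ± 0.16 (SD, n = 2 arrays) with an interval from -3.55 to -2.52, and its limma adjusted p was 0.0065. At 24 h it read -2.26 and -1.75, so the times did not overlap here either. With 2 values per time such a separation carries little weight, here and for RGIAP58 and RNABT12. These features were also chosen for their extreme 48 h means, which favours 48 h values farther from 0 than those at 24 h. The share of features with such a separation among the 1204 on all 4 arrays was not counted. The difference between times was -1.03 ± 0.30 (SE) and did not pass (limma adjusted p = 0.756). The feature in the well before it was also negative, at -1.495 and -0.55, and did not pass (limma adjusted p = 0.345).

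**Figure D2:**
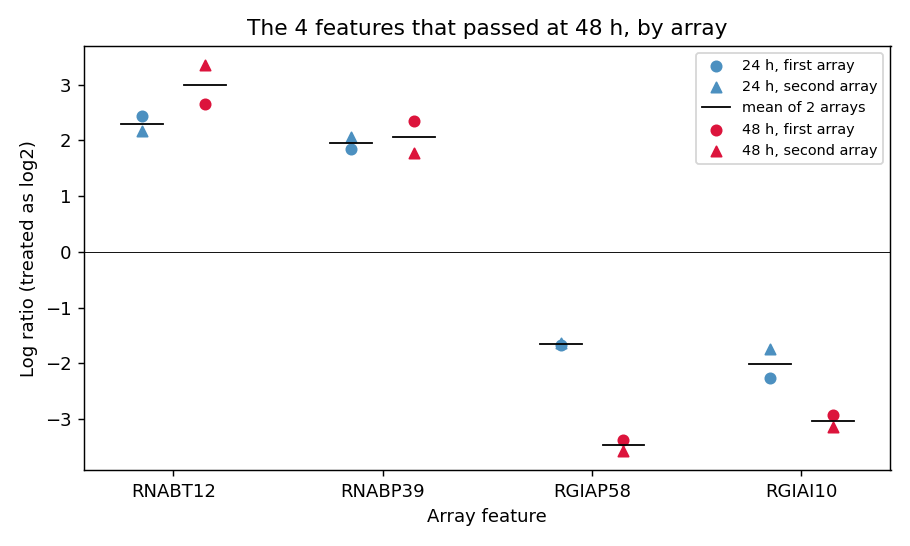
Log ratio (y axis, treated as log2) of the 4 features that passed at 48 h (x axis), with 24 h arrays in blue and 48 h arrays in red, circles for the first and triangles for the second array of a time and bars for the mean of 2 arrays. RGIAP58 had a mean of -1.66 at 24 h and of -3.47 at 48 h, and RNABP39 of 1.96 and 2.06. The features were chosen by their 48 h means, and neither difference between times passed (limma adjusted p of 0.236 and 0.976).

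The calls depended on how the columns are read and scaled. Read as channel 2 over channel 1 and turned by the labels, 0 features passed with limma. The 48 h means were then 0.35 for RNABT12, -0.29 for RNABP39, -0.10 for RGIAP58 and -0.11 for RGIAI10, each with a limma adjusted p of 0.999. These features had passed because both columns as deposited held similar ratios, so turning the first column had to bring their means near 0. The drop therefore does not tell which reading is right. Under the turned reading, similar ratios in both columns would be a difference between channels and not between treated and untreated cells. Leaving out a 48 h array leaves 1 value at 48 h, assumed to vary like the others, and less power to pass. Only the ratios without the first and without the second 48 h array are therefore given. They are the values of the remaining 48 h array and are no check of the calls. RNABT12 was then at 3.35 and 2.65, and RGIAP58 at -3.57 and -3.37. RNABP39 was at 1.77 and 2.35, and RGIAI10 at -3.15 and -2.93. With all arrays scaled to equal median absolute deviation 0 features passed, although the 4 ratios were larger in size than unscaled. They were 3.65 for RNABT12, 2.35 for RNABP39, -4.13 for RGIAP58 and -3.62 for RGIAI10 (limma adjusted p from 0.111 to 0.137). With each plate centred on its median 8 passed, 3 positive and 5 negative, and RNABT12 did not (2.89, limma adjusted p = 0.0527).

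A larger group of features lay just below the threshold. Between adjusted p values of 0.05 and 0.1 there were 18 features, 9 positive and 9 negative, all with one sign on both arrays and with means from 1.10 to 2.37 in size. The lowest adjusted p among them was 0.0519. Before adjustment, 232 features (10.4%) had a limma p under 0.05, of which 89 were positive and 143 negative, where 5% of the features tested is 111.2. Below 0.01 there were 76, made up of 28 positive and 48 negative features.

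By size alone, 25 features (1.12%) had positive and 51 (2.29%) negative ratios on both arrays with a mean of at least 1. Read as channel 2 over channel 1, the same rule gave 15 features, 13 positive and 2 negative, so the excess of negative ratios holds for the columns as deposited. The 25 positive features read from 0.76 to 2.71 on the first array, with a median of 1.76, and from 0.22 to 3.35 on the second, with a median of 1.19. The 51 negative features read from -3.50 to -0.87 on the first array, with a median of -1.70, and from -3.57 to -0.066 on the second, with a median of -0.87. The first array held the larger ratio for 21 of the 25 and 43 of the 51. The excess of negative features was smaller when each array had to reach 1 by itself: 14 positive and 18 negative features did so. At a mean of 4 times there were 4 positive and 3 negative features, and at 8 times 1 and 2.

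Choosing features by size on one 48 h array and reading the other, which took no part in the choice, shows how far a single ratio carried over. Of 225 features with a ratio of at least 1 in size on the first array, 165 (73.3%) had the same sign on the second. Their median size on the first array was 1.30 and their median on the second, in the same direction, was 0.286. Of these 225, 32 also reached 1 on the second array in the same direction and 0 in the opposite direction. In the reverse reading, 51 features reached 1 on the second array, 42 of them (82.4%) had the same sign on the first, and their median went from 1.20 to 1.32. Large ratios of the second array were thus found again on the first at a similar size, while those of the first array were mostly much smaller on the second. The choices are unlike, as a size of 1 takes 10.1% of the features on the first array (SD 0.633) and 2.29% on the second (SD 0.383). The part of this unequal spread in the contrast was not tested.

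At sizes from 0.5 to 1 on the first array, 66.7% of the positive and 66.7% of the negative ratios had the same sign on the second. Among 10 features at 2 or above on the first array, 9 had the same sign on the second array, with a median of 1.40. Among 28 features at -2 or below, 18 had the same sign, with a median size of 0.123 in that direction. That is 64.3%, against 26 of 29 features (89.7%) between -2 and -1.5. Among positive ratios the share was 59.6% (28 of 47 features) between 1 and 1.5, below the 66.7% at smaller sizes, so the shares did not grow steadily with size for either sign. These counts describe the arrays and were not tested. For ratios under 0.25 in size on the first array, 55.1% had the same sign on the second.

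**Figure D3:**
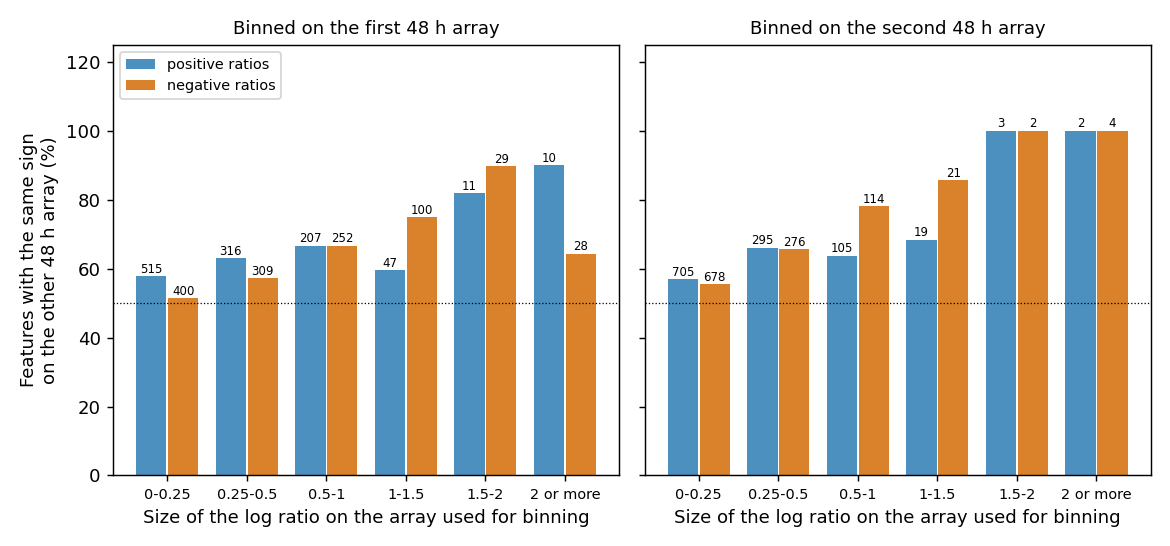
Share of features (y axis, %) with the same sign on the other 48 h array, by size of the log ratio (x axis) on the first array (left) and on the second (right), with positive ratios in blue, negative ones in orange and the number of features above each bar; the dotted line is at 50%. The shares run from 51.5% to 90% on the left, where the 28 most negative ratios reach 64.3%.

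The features large at 48 h mostly had the same sign at 24 h where they were measured. All 25 positive features had a value on the second 24 h array, and 23 of these were positive there, with a median of 1.28 and a lowest value of -2.41. Of the 19 measured on the first 24 h array, 19 were positive, with a median of 1.76. Of the 51 negative features, 32 had a value on the second 24 h array and all 32 were negative, with a median size of 0.845. On the first 24 h array 28 had a value and 27 were negative, with a median size of 1.09. Among all 2224 features, taken in the direction of their 48 h mean, 66.2% had the same sign on the second and 70.9% on the first 24 h array. These arrays took no part in the choice.

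The difference between times was tested for the 1891 members with at least 1 value at 24 h. None passed with limma (0 features, 0%), the smallest adjusted p being 0.236. This does not show that the times were alike. In data simulated with equal spread on all arrays, the fit found 3 of 82 differences of size 1 and 49 of 90 of size 2. Before adjustment, 88 had a p under 0.05, 60 of them higher and 28 lower at 48 h than at 24 h, where 5% of the features tested is 94.55. Of the 1204 features on all 4 arrays, 556 had one sign within each time. The direction was the same at both times for 462 of them and opposite for 94, of which 58 went from positive to negative and 36 from negative to positive. In 0 of the 94 did both means reach 1 in size.

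Among features without a value at 24 h, the large 48 h ratios were all negative. Of the 2224, 333 had no 24 h value, 687 had 1 and 1204 had both. With one sign and a mean of at least 1, the 333 held 0 positive and 15 negative features (4.50%). The 687 held 6 positive (0.87%) and 12 negative ones (1.75%), and the 1204 held 19 (1.58%) and 24 (1.99%). Over all 2224 features the shares were 1.12% positive and 2.29% negative, so few positive ones would be seen in 333 features at that share. The 15 negative features read from -3.11 to -1.28 on the first 48 h array, with a median of -1.80, and from -1.23 to -0.11 on the second, with a median of -0.55. In all 15 the first array held the larger ratio. The 48 h arrays correlated across features with r = 0.29 in the 333, 0.29 in the 687 and 0.45 in the 1204. The SD on the first array was 0.712, 0.586 and 0.630 in these sets, and on the second 0.326, 0.323 and 0.425. The 54 features whose single 24 h value came from the first 24 h array held 0 positive and 4 negative (7.41%) large ratios. The 633 with a value from the second held 6 (0.95%) and 8 (1.26%). The rule that left values empty is not stated, and its part in these counts was not tested.

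**Figure D4:**
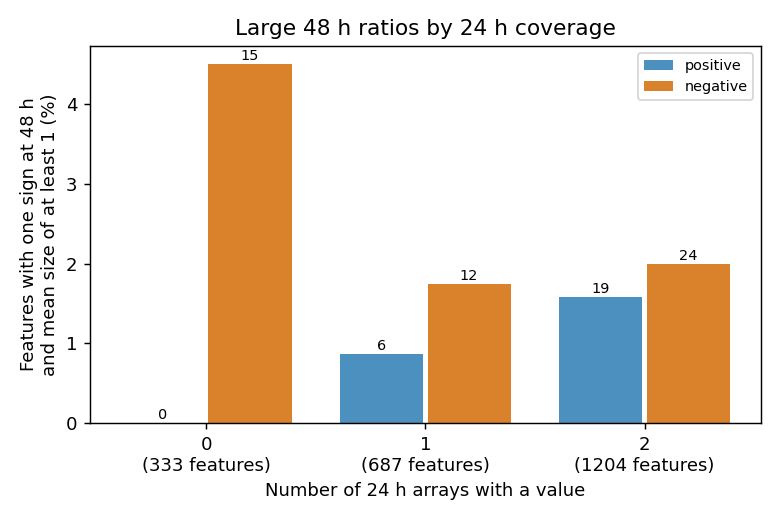
Share of features (y axis, %) with one sign on both 48 h arrays and a mean log ratio of at least 1 in size, by the number of 24 h arrays that also had a value (x axis), positive in blue and negative in orange, with the number of features above each bar. The 333 features with no 24 h value show 0 positive and 15 negative ones.

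The IDs fall into 3 families by their first letters. RGI holds 27 plates with 2592 listed features, of which 1130 (43.6%) had both 48 h values, RNA 36 plates with 3456 features, of which 1085 (31.4%) did, and MKA 2 plates with 192 features, of which 9 did. Of the RGI features, 3 (0.27%) had positive and 27 (2.39%) negative ratios by the rule of one sign and a mean of at least 1. Of the RNA features, 19 (1.75%) were positive and 24 (2.21%) negative, and of the 9 MKA features 3 were positive and 0 negative. Over all 2224 features the shares were 1.12% positive and 2.29% negative. The family medians of the 48 h mean lay close together for RGI (-0.018) and RNA (0.016), while that of MKA was 0.521. Correlation between the 48 h arrays was 0.46 in RGI and 0.33 in RNA. The calls were 2 of the 1130 RGI and 2 of the 1085 RNA features. Both negative calls were RGI features and both positive calls RNA features, too few to compare the families by sign.

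Plate medians differed from 0 on both 48 h arrays, and those of one array did not follow those of the other. Each of the 65 plates had between 4 and 69 members. Among the 51 plates with at least 20 members, plate medians ran from -0.676 to 0.790 on the first array (SD over plates 0.223) and from -0.378 to 0.260 on the second (SD 0.114). Across these plates the medians of both arrays had a Pearson's r of -0.0089 and a Spearman's rho of 0.089. After each plate was centred on its median, the correlation over features was 0.42, against 0.39 before, and 19 positive and 41 negative features reached a mean of at least 1 with one sign. Large ratios were spread over 40 plates, with at most 5 in a plate, which had 33 members. The 48 h means of features in adjoining wells correlated with r = 0.12 and rho = 0.099 over 1022 pairs.

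**Figure D5:**
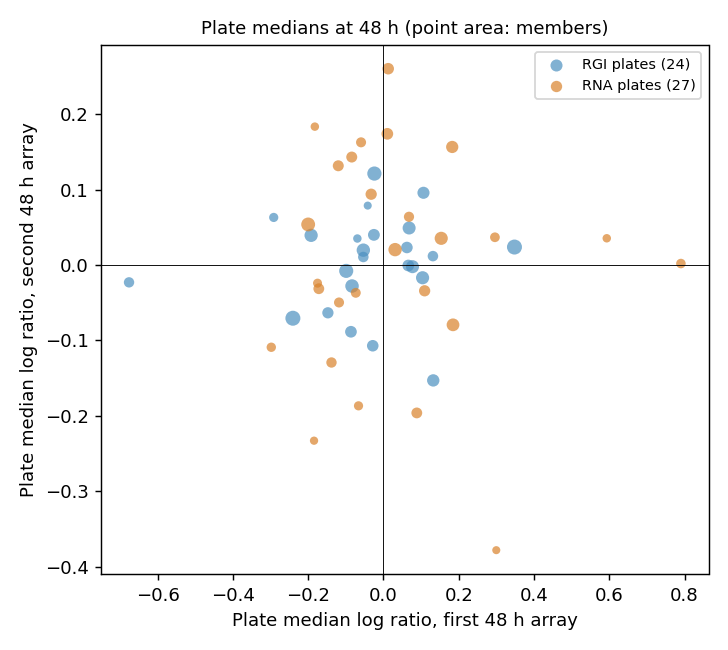
Median log ratio of each plate with at least 20 members on the first (x axis) and second 48 h array (y axis), treated as log2, with the point area growing with the number of members and colours for the RGI and RNA families. The medians spread from -0.676 to 0.790 along x and show no common trend (r = -0.0089).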

How the data were processed

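Total RNA of treated and untreated cells was compared on 2-channel arrays. The authors deposited log ratios, 1 per feature and column, which are treated as log2 values. On the first 24 h array they go down to -6.63, a size a log10 ratio of a scanner image cannot reach. At 48 h they go down to -4.42 only, and the sizes do not tell log2 from a natural logarithm. Not given in the sources used here are the log base, numerator, background correction, normalization and rule for missing values. Channel intensities were not used here, so signal over background is unknown and the number of arrays limits the precision (median standard error at 48 h 0.211). The members and tests were chosen with earlier results of these data known.

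Features with both 48 h values entered a fit by limma 3.58.1 (R 4.3.3, with lmFit and eBayes; prior degrees of freedom 4.17), with 1 mean per time over all 4 arrays, two-sided, and Benjamini-Hochberg adjustment over the 2224 features, or over 1891 for the difference between times. Simulated data with known changes were used to test the fit. Of changes of size 1, 28 of 100 were recovered at 48 h and 3 of 82 in the difference between times. At size 2 these were 96 of 100 and 49 of 90. Among unchanged features, 5 of 2024 and 2 of 1719 were called. The simulation gave all arrays of a feature the same spread and no plate differences. In the data the SDs of the 48 h arrays were 0.633 and 0.383, so these counts may not hold for them. An exact sign-flip test of 2 arrays cannot go below p = 0.5. Named features are the 2 highest and 2 lowest means among those that passed with one sign on both arrays. Gene lists were not tested, as the features have no gene names. Alternatives varied the arrays and features in the fit, normalization, plate centring, weights, moderation, a channel term, the reading of the signs, thresholds and single arrays.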

Additional observations from a re-analysis of the deposited data

Results flagged for a closer look

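Outside the 2224 features, 44 features had a value on only 1 of the 48 h arrays with a ratio of at least 1 in size. This exceeds the limit of 3 for a count of 0, which says nothing of how many would be seen at the shares of the 2224. On the first array alone these were 34 of 182 features (18.7%), 28 positive and 6 negative, against 10.1% of the features measured on both. On the second array alone they were 10 of 566 (1.77%), 5 of each sign, against 2.29%. Large ratios of the first array thus leaned positive where the second had no value and negative where it had one; the difference was not tested.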

How the results depend on the processing

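The 4 calls at 48 h stayed at 4 with median centring and robust moderation, and were 3 with at least 1 array of each time, where RNABP39 did not pass (limma adjusted p = 0.0571; this value was added after seeing the data). They moved to 8 with the 48 h arrays only and with plate centring, 11 with array weights, 13 among the 1204 features with all 4 arrays, where a channel term lowered them to 4, 14 after quantile normalization, 0 with equal median absolute deviation, 22 for an adjusted p threshold of 0.1 and 76 for 1.5 times with p below 0.01 before adjustment. Leaving out 1 array in turn gave 0 to 8 calls. The 76 features by sign and size moved to 43 with all 4 arrays (fewer features), 233 at 1.5 times and 32 with 2 times on each array; after quantile normalization there were 25 positive and 83 negative. The difference between times stayed at 0 in the refits run for it (features with all 4 arrays, the 4 normalizations, array weights, robust moderation, the channel reading and each array left out) and at an adjusted p under 0.1. It moved to 26 (23 higher, 3 lower at 48 h) by 1.5 times and p below 0.01 before adjustment. With all 4 arrays the correlation was 0.45 and the share of one sign 63.0%. Read as channel 2 over channel 1, the columns gave 0 calls, 15 features by size (13 positive, 2 negative), a correlation of -0.39, a share of 39.25% and a ratio of -0.29 for RNABP39. That correlation and share follow by construction from turning a single 48 h column. Turning all signs reverses each ratio by construction, to -3.0 for RNABT12, -2.06 for RNABP39, 3.47 for RGIAP58 and 3.04 for RGIAI10. Apart from these sign readings, RGIAP58 and RGIAI10 passed in 9 and RNABP39 and RNABT12 in 8 of 12 refits, with limma adjusted p up to 0.111, 0.111, 0.427 and 0.137; leaving out a 24 h array repeats the 48 h test on the 48 h arrays only and is not counted again. The cause of the moves was not tested. No paired analysis was possible because the 24 h labels carry no replicate number to pair with those of 48 h; treated and untreated RNA are already paired within each array by the ratio. A filter on dim features was not run, as it needs intensities.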
